A study of Schizosaccharomyces pombe with 24 samples.

Results

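The 5 genes *tps1*, *tpp1*, *ntp1*, *gpd1* and *gpd2*, of trehalose and glycerol metabolism, were followed across the RNA-seq libraries of *S. pombe* H2B onco-mutants. They were taken by their gene symbol, which found 5 of the 5195 genes in the count tables, and all 5 passed the filter on low counts in every comparison. The libraries came from 8 genotypes with 3 biological repeats each: *htb1-G52D*, *htb1-P102L*, *htb1-E75Q*, *htb1-D67N*, *htb1-E112K* and *htb1-E34K*, which carry a point mutation in the only H2B gene, *set1*Δ by its label, a deletion of the H3K4 methyltransferase gene in the title and a knockdown in the genotype field, and WT. Cells were grown at 30 °C without a stress treatment being named for these libraries, and mRNA was selected with oligo(dT) beads. In the strain list, all H2B mutants and WT are haploid and carry *leu1-32* and *ura4-D18*. WT is also *ade6-M216*, whereas *htb1-E75Q*, *htb1-D67N*, *htb1-E112K* and *htb1-E34K* are *ade6-M210* and carry a kanMX6 cassette beside *htb1*, and *htb1-G52D* and *htb1-P102L* are of the opposite mating type, h-, with the *ade6* allele marked as unknown. For *set1*Δ the study's legends name 2 strains, of which only one is in the strain list (h+, *leu1-32*, *ura4-D18*, kanMX6 at *set1*), so the genotype of the strain sequenced is not certain. In comparisons with WT, or between mutants listed with different backgrounds, the genotype therefore cannot be told apart from these differences between the strains.

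Trehalose is a disaccharide that yeasts store and use to shield proteins and membranes from heat, drying and oxidants. Tps1 joins glucose from UDP-glucose to glucose 6-phosphate, Tpp1 removes the phosphate to give trehalose, and the neutral trehalase Ntp1 splits trehalose back into glucose, so that *ntp1* stands for breakdown rather than synthesis. Glycerol balances osmotic pressure. Gpd1 and Gpd2 are glycerol 3-phosphate dehydrogenases that draw dihydroxyacetone phosphate out of glycolysis towards glycerol, and *gpd1* is known as an osmotic stress target of the MAP kinase Sty1 and of Atf1, a bZIP transcription factor that binds DNA with its partner Pcr1. In fission yeast, *tps1*, *ntp1* and *gpd1* are counted among the genes of the core environmental stress response.

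The sequences just before the genes are shown because the stress factors of this pathway bind short motifs there. In the RefSeq annotation of ASM294v3, the 300 bases upstream of the annotated start of *gpd1* (chromosome II, plus strand) held 2 copies of the Atf1-Pcr1 core TGACGT, one of them as its reverse complement ACGTCA, and 1 copy of TTACGTAA, a Pap1-type site. The window of *ntp1* (chromosome II, plus strand) held 1 Atf1-Pcr1 core, as ACGTCA, and that of *gpd2* (chromosome I, minus strand) held none of them. The windows read as follows, 5′ to 3′ along the coding strand, with these motifs in capitals.
gpd1: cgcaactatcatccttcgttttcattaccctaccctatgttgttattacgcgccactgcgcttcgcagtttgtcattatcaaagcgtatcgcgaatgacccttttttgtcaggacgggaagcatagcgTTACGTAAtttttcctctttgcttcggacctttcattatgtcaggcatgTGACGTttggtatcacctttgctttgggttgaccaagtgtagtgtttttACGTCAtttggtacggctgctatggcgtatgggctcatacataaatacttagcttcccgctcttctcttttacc
ntp1: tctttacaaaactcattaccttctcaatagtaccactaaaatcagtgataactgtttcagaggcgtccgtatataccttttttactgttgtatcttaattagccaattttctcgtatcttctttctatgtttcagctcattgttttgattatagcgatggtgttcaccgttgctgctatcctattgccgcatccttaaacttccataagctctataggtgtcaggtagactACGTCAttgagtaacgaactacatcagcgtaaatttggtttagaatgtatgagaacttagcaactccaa
gpd2: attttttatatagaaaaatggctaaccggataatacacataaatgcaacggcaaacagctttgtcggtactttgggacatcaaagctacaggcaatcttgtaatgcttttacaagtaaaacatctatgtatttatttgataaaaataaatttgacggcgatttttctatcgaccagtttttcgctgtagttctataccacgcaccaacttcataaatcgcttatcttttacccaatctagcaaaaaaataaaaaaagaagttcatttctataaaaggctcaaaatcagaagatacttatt

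The cores of *gpd1* ended 118 and 69 bases before the start, its TTACGTAA 165 bases before it, and the core of *ntp1* 64 bases before it. No match overlapped another. The windows of *tps1* and *tpp1*, both on chromosome I, also held none of TGACGT, TTACGTAA, the Rst2-type motif CCCCTC or the heat shock core GAANNTTC, searched on both strands. Over the 5112 windows of this length before protein-coding genes, 6.03% held TGACGT, 0.548% held TTACGTAA, 1.94% held CCCCTC and 11.3% held GAANNTTC. The TATA-type letters TATAAA, also searched on both strands, were in 51.2% of windows and in those of *tps1*, *tpp1* and *gpd2*. A match is a run of letters and not a measured binding site.

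Several features of the libraries touch the values below. The counts summed to 18935513 to 28181070 per library. TMM scaling, which sets libraries to a common level by the bulk of their genes, gave factors of 0.703 to 1.53, and with library totals in its place the median of all genes moved up by 0.21 to 0.67 (log2) in the 7 comparisons with WT. The libraries labelled *set1*Δ held 336 to 412 counts of *set1*, against 20 to 32 in WT, which goes against that label. One library each of *htb1-G52D* (1382 counts), *htb1-P102L* (712 counts) and WT (865 counts) held *ura4* counts, although *ura4-D18* removes that gene, and all others held 2 or fewer. For *mat1-Mc*, a gene of h- cells, *htb1-G52D* had 238, 129 and 0 counts and *htb1-P102L* had 78, 150 and 0, against 0, 0 and 103 in WT, so that replicate 3 of each went against the listed mating type. Leaving out any 1 of these libraries left the number of the 5 genes called against WT as given. The *htb1* transcript itself differed: it had 212546 to 238225 counts in *htb1-D67N*, 111586 to 201136 in *htb1-E75Q* and 88025 to 197540 in *htb1-E112K*, but 22014 to 43714 in *htb1-G52D* and *htb1-P102L* together, 17564 to 29871 in *htb1-E34K* and 15413 to 21152 in WT. Its part in the results was not tested. The level also moved with gene length: per doubling of gene length, the level relative to the WT mean changed by 0.09 to 0.24 (log2) in the *htb1-G52D* libraries and by 0.20 to 0.35 in those of *htb1-E75Q*, against -0.03 to 0.05 in WT. It was 0.09 to 0.13 in *htb1-P102L*, 0.08 to 0.33 in *htb1-D67N*, 0.03 to 0.23 in *htb1-E112K*, -0.06 to 0.27 in *htb1-E34K* and 0.05 to 0.07 in the libraries labelled *set1*Δ.

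*tps1*, the trehalose 6-phosphate synthase gene (SPAC328.03), rose in 5 of the 6 H2B mutants. In CPM, a count divided by its library's total after TMM scaling and set to a common base, it had 435, 450.1 and 443 in the 3 libraries of *htb1-G52D*, 369, 428 and 388 for *htb1-E75Q*, 367, 373 and 387 for *htb1-D67N*, 330.3, 366 and 305 for *htb1-P102L* and 297, 269 and 228 for *htb1-E112K*, against 141, 118 and 109 in WT. Every library of these 5 mutants was above every WT library. The *htb1-G52D* libraries lay within 1.03-fold of each other in CPM, but ran from 198 to 302 in FPKM, the authors' unit with no TMM scaling. The *htb1-E34K* libraries had 169, 81.3 and 176 CPM and enclosed the WT values, whereas those labelled *set1*Δ had 95.9, 100.5 and 82.6 CPM, all below WT. In FPKM the libraries labelled *set1*Δ (31.6 to 43.0) overlapped WT (37.6 to 45.7).

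Against WT, the log2 fold change of *tps1* by edgeR's quasi-likelihood test was 1.85 ± 0.17 (SE) for *htb1-G52D* (Benjamini-Hochberg adjusted p = 5.28e-05), 1.67 ± 0.23 for *htb1-E75Q* (adjusted p = 0.000162), 1.68 ± 0.16 for *htb1-D67N* (adjusted p = 3.09e-05), 1.47 ± 0.15 for *htb1-P102L* (adjusted p = 2.76e-05) and 1.14 ± 0.16 for *htb1-E112K* (adjusted p = 0.000683), with 3 libraries in each group. A gene is called here at an adjusted p under 0.05 and at least a 2-fold change. The value in *htb1-E34K* was 0.25 ± 0.29 (adjusted p = 0.649) and that of the libraries labelled *set1*Δ -0.33 ± 0.13 (adjusted p = 0.0865), so neither was called. By genotype mean, *htb1-G52D* was highest with 443 ± 7.61 CPM (SD, n = 3) and did not overlap *htb1-E75Q*, the next one down, in CPM, whereas in FPKM they overlapped (198 to 302 in *htb1-G52D* and 153 to 296 in *htb1-E75Q*).

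*ntp1*, which encodes the neutral trehalase (SPBC660.07), rose in the same 5 H2B mutants from a lower level. It had 100.2, 147 and 86.9 CPM for *htb1-E75Q*, 101, 82.9 and 105 for *htb1-G52D*, 74.3, 72.6 and 64.6 for *htb1-P102L*, 55.3, 57.5 and 83.8 for *htb1-D67N* and 58.1, 46.6 and 41.4 for *htb1-E112K*, against 23.2, 18.0 and 20.2 in WT. None of these libraries overlapped WT. The *htb1-E34K* libraries had 49.2, 13.3 and 26.5 CPM, a 3.69-fold spread within 1 genotype, and the libraries labelled *set1*Δ had 20.7, 17.2 and 18.1 CPM, within or just below the WT range.

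The log2 fold change of *ntp1* was 2.43 ± 0.23 for *htb1-E75Q* (edgeR, adjusted p = 9.65e-06), 2.24 ± 0.16 for *htb1-G52D* (adjusted p = 2.07e-05), 1.81 ± 0.14 for *htb1-P102L* (adjusted p = 3.66e-06), 1.75 ± 0.19 for *htb1-D67N* (adjusted p = 9.08e-05) and 1.28 ± 0.16 for *htb1-E112K* (adjusted p = 0.000419). These were the largest changes of the 5 genes in *htb1-G52D*, *htb1-P102L* and *htb1-E75Q* under all alternatives run. In *htb1-D67N* *tps1* came first with the gene-length correction, with limma on log2(FPKM + 1) and without *htb1-D67N* replicate 3, and in *htb1-E112K* with limma. In *htb1-E34K* it was 0.58 ± 0.38 (adjusted p = 0.436), and in the libraries labelled *set1*Δ -0.07 ± 0.14 (adjusted p = 0.751).

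*tpp1*, the trehalose 6-phosphate phosphatase gene (SPAC19G12.15c), was called in no comparison with WT. It had 169, 251 and 223 CPM in *htb1-G52D*, 174, 172 and 182 in *htb1-D67N* and 116 or less in the *htb1-E34K* libraries, against 143, 134 and 147 in WT. The first pair of mutants lay above WT in all libraries and *htb1-E34K* below it in all libraries by CPM, though not by FPKM (29.6 to 49.1 in *htb1-E34K*, 32.3 to 43.8 in WT), but each by less than 2-fold: the log2 fold change was 0.60 ± 0.17 in *htb1-G52D* (edgeR, adjusted p = 0.0194), 0.38 ± 0.13 in *htb1-D67N* (adjusted p = 0.0452) and -0.34 ± 0.18 in *htb1-E34K* (adjusted p = 0.341). In *htb1-P102L*, *htb1-E75Q*, *htb1-E112K* and the libraries labelled *set1*Δ the libraries overlapped WT in CPM (in FPKM *htb1-E75Q* lay above it), with log2 fold changes of 0.05, 0.30, -0.15 and 0.15.

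**Figure D1:**
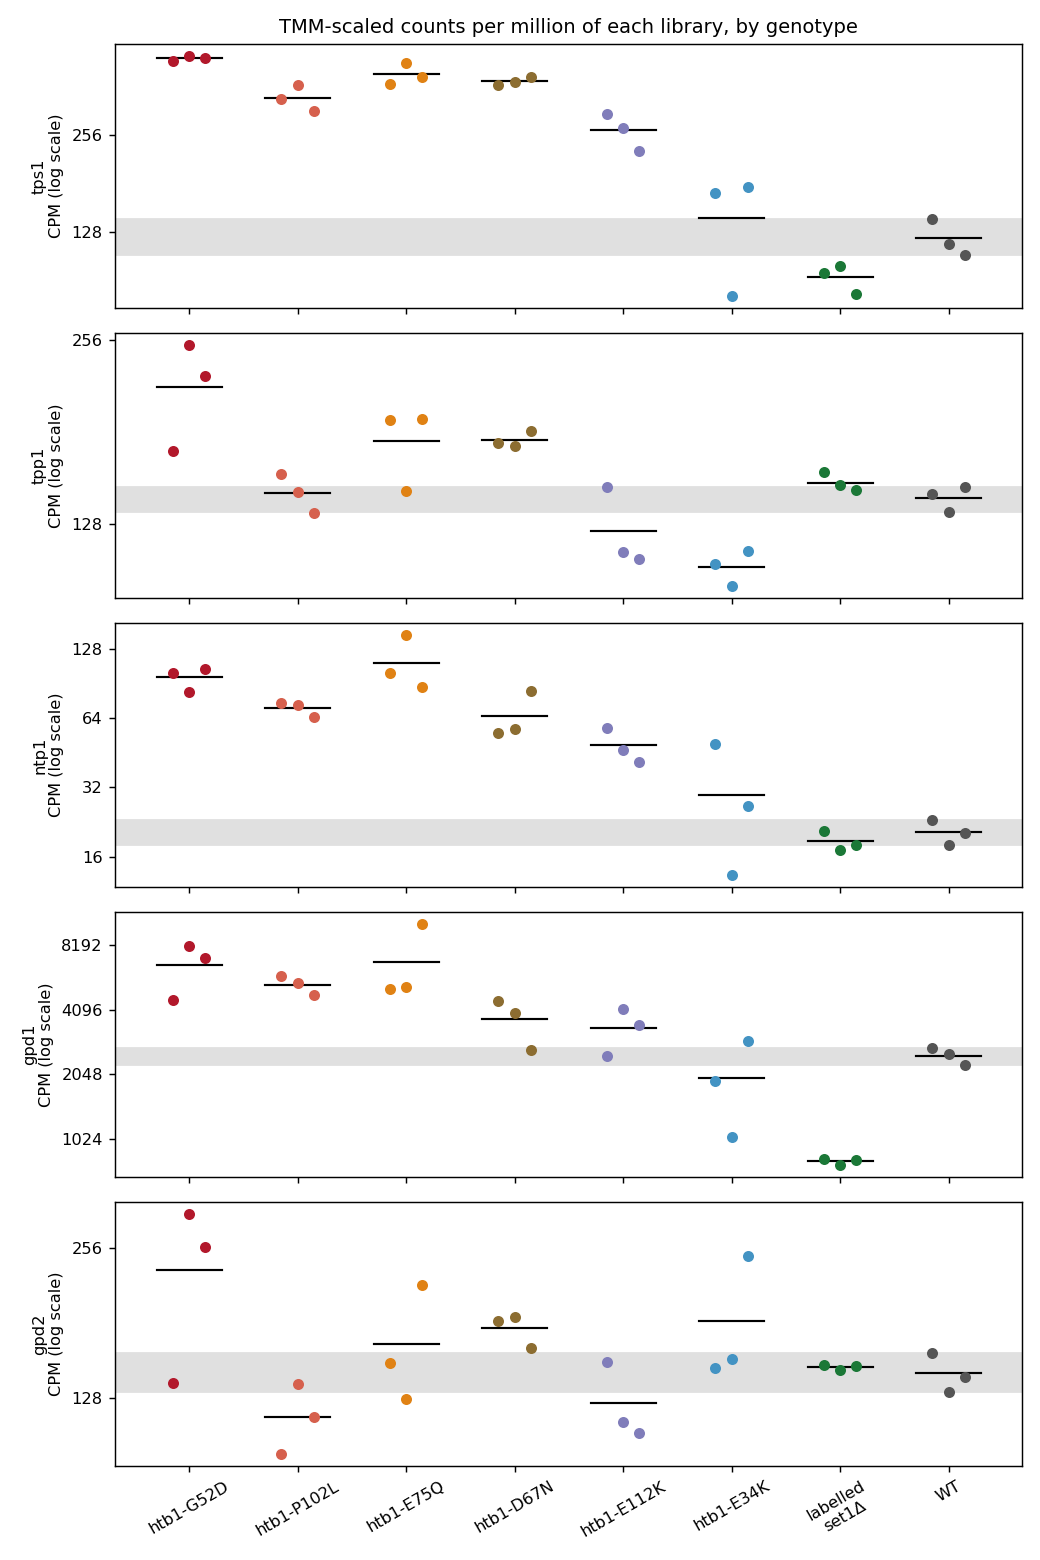
TMM-scaled CPM (log scale) of the 5 genes in each of the 24 libraries. Points are libraries, lines are means of 3, and the grey band is the range of the WT libraries; *tps1* and *ntp1* lie above the band in all libraries of 5 H2B mutants, and *gpd1* lies far below it in the libraries labelled *set1*Δ.

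*gpd1* (SPBC215.05), the stress-responsive glycerol 3-phosphate dehydrogenase gene, changed in both directions. It had 5135, 5235 and 10213 CPM for *htb1-E75Q*, 4560, 8079 and 7160 for *htb1-G52D* and 5856, 5439 and 4779 for *htb1-P102L*, against 2699, 2536 and 2259 in WT. These 3 mutants lay above WT in every library, although *htb1-E75Q* replicate 3 stood apart from its other 2 libraries. *htb1-D67N* with 4508, 3960 and 2653 CPM and *htb1-E112K* with 2496, 4103 and 3457 CPM each had 1 library inside the WT range, although in FPKM both lay above WT, at 2041 to 2225 in *htb1-D67N* and 1710 to 1947 in *htb1-E112K*, against 1011 to 1112 in WT. The *htb1-E34K* libraries ran across 1907, 1046 and 2931 CPM. The libraries labelled *set1*Δ were tight and low, at 818, 775 and 814 CPM.

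The log2 fold change of *gpd1* was 1.45 ± 0.37 for *htb1-E75Q* (edgeR, adjusted p = 0.00806), 1.40 ± 0.27 for *htb1-G52D* (adjusted p = 0.00292) and 1.13 ± 0.20 for *htb1-P102L* (adjusted p = 0.00102), all called higher. It was 0.63 ± 0.24 in *htb1-D67N* (adjusted p = 0.0601), 0.46 ± 0.22 in *htb1-E112K* (adjusted p = 0.149) and -0.31 ± 0.36 in *htb1-E34K* (adjusted p = 0.651), none of them called. In the libraries labelled *set1*Δ *gpd1* fell by 1.57 ± 0.12 on the log2 scale (adjusted p = 2.14e-05), which ranked it 4829 of 4845 genes from the largest rise to the largest fall. The call in *htb1-P102L* rested on the fold threshold: without the *ura4*-containing libraries the value was 0.98 (adjusted p = 8.42e-05). The call in *htb1-E75Q* was lost without WT replicate 2 (adjusted p = 0.0520).

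*gpd2* (SPAC23D3.04c), which encodes the second glycerol 3-phosphate dehydrogenase, was not called against WT in any mutant. It had 137, 299.9 and 257 CPM for *htb1-G52D*, 147, 153 and 247 for *htb1-E34K*, 183, 186 and 161 for *htb1-D67N* and 98.5, 136 and 117 for *htb1-P102L*, against 157, 132 and 141 in WT. In CPM only the *htb1-D67N* libraries all lay outside the WT range, by a small step. In FPKM those of *htb1-G52D*, *htb1-E75Q*, *htb1-E34K* and *set1*Δ by label also lay above it. The log2 fold change was 0.69 ± 0.26 in *htb1-G52D* (edgeR, adjusted p = 0.0520), 0.37 ± 0.14 in *htb1-D67N* (adjusted p = 0.0663), 0.39 ± 0.24 in *htb1-E34K* (adjusted p = 0.411), -0.26 ± 0.15 in *htb1-P102L* (adjusted p = 0.175) and 0.11 ± 0.11 in the libraries labelled *set1*Δ (adjusted p = 0.504).

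Within *htb1-G52D*, replicate 1, the library with *ura4* counts, had a TMM factor of 1.53 and was lowest in CPM for *tps1*, *tpp1*, *gpd1* and *gpd2* but not for *ntp1*. In FPKM it was highest for *tps1* (302, with 198 and 226 in the others), *tpp1* and *ntp1*, and lowest for *gpd1* and *gpd2*. Without it the log2 fold change of *gpd1* was 1.61 (edgeR, adjusted p = 0.000126), of *gpd2* 0.96 (adjusted p = 0.000778) and of *tpp1* 0.74 (adjusted p = 0.00219), so the last pair stayed under 2-fold. With library totals in place of TMM, both were called in *htb1-G52D*, *tpp1* at 1.22 (adjusted p = 0.00015) and *gpd2* at 1.27 (adjusted p = 0.000238), relative to a median of 0.77 for all genes under that scaling, which called 33.9% of all genes higher in *htb1-G52D* and 28.5% in *htb1-E75Q*.

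Counted over the 5 genes, 3 were called higher in *htb1-G52D*, where 13.4% of all tested genes were called higher. The same held for 3 genes of *htb1-E75Q* (13% of all), 3 of *htb1-P102L* (9.93% of all), 2 of *htb1-D67N* (10.8% of all), 2 of *htb1-E112K* (7.96% of all) and 0 of *htb1-E34K* (0.103% of all). In *htb1-E34K*, edgeR left 900 genes at an unadjusted p under 0.05, and DESeq2 called none of the 5 genes either. In the libraries labelled *set1*Δ 1 gene, *gpd1*, was called lower (1.3% of all) and 0 higher (5.16% of all). The median log2 fold change of the 5 genes was 1.45 for *htb1-E75Q*, 1.40 for *htb1-G52D*, 1.13 for *htb1-P102L*, 0.63 for *htb1-D67N*, 0.46 for *htb1-E112K*, 0.25 for *htb1-E34K* and -0.07 for the libraries labelled *set1*Δ, against medians of all tested genes between 0.01 and 0.09. With a correction for gene length, chosen after seeing the data, the number called was the same in each of these comparisons, *tps1* having a log2 fold change of 1.60 and *ntp1* of 2.13 in *htb1-E75Q*.

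**Figure D2:**
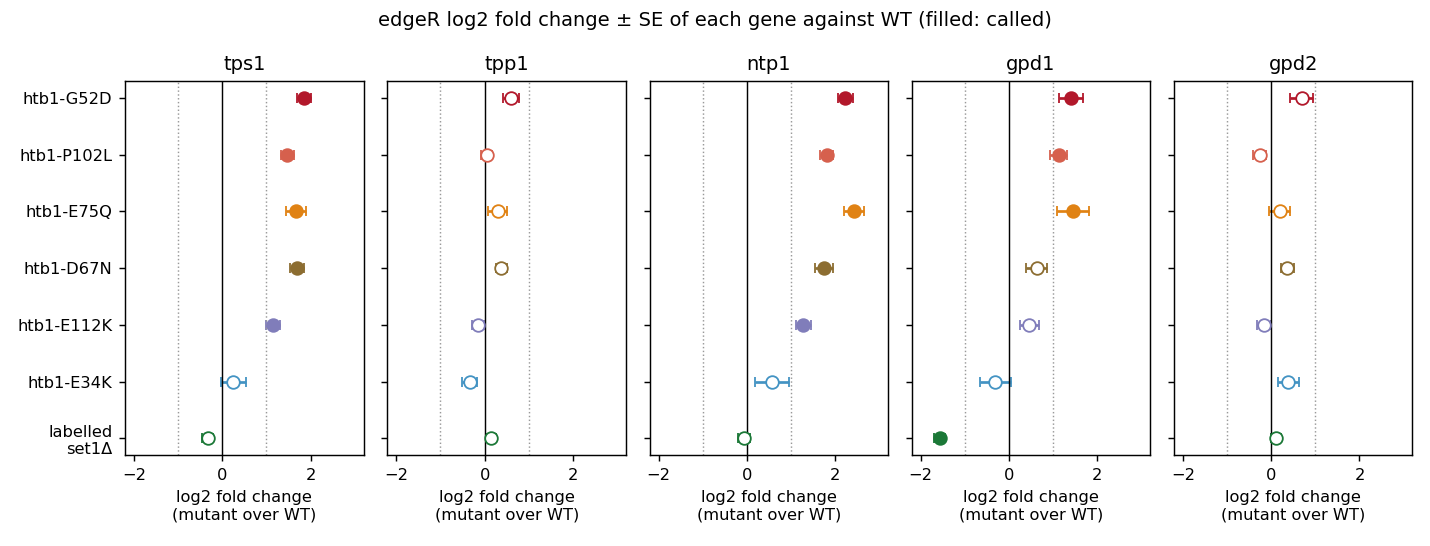
edgeR log2 fold change of each gene (x axis, mutant over WT, bars ± SE, 3 libraries against 3) in each mutant (rows). Filled points passed an adjusted p of 0.05 and 2-fold, the dotted lines; *tps1* and *ntp1* pass in 5 H2B mutants, *gpd1* in 3 and, downward, in the libraries labelled *set1*Δ.

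Over all 24 libraries, the edgeR F test for any difference among the 8 genotypes passed for all 5 genes, with adjusted p = 1.09e-08 for *tps1*, 3.67e-07 for *ntp1*, 1.76e-06 for *gpd1*, 0.000225 for *tpp1* and 0.0206 for *gpd2*. Of all 5030 genes tested, 68.8% passed, so passing does not set these genes apart. *tps1* ranked 125 by the F statistic.

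Direct comparisons between H2B mutants asked where the mutations differ. Between *htb1-G52D* and *htb1-P102L*, the mutants that the study examined most closely, none of the 5 genes was called (6.76% of all genes were). *gpd2* came closest, with 137, 299.9 and 257 CPM in *htb1-G52D* against 98.5, 136 and 117 in *htb1-P102L* and a log2 difference of 0.96 ± 0.26 (edgeR, adjusted p = 0.0287). It passed 2-fold with library totals (1.15) and without *htb1-G52D* replicate 1 (1.22). *tpp1* differed by 0.55 ± 0.17 (adjusted p = 0.0474), and the interval of 2 SE around the *tps1* difference ran from 0.07 to 0.71.

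Between *htb1-D67N* and *htb1-E112K* none was called either (4.13% of all genes were). In CPM, though not in FPKM, *tps1*, *tpp1* and *gpd2* were above *htb1-E112K* in every *htb1-D67N* library, by 0.51, 0.50 and 0.51 on the log2 scale, with adjusted p = 0.0662, 0.062 and 0.0706 by edgeR.

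*htb1-E75Q* was set against *htb1-E34K*, a pair chosen with earlier results of these data known. Both carry the kanMX6 cassette and are listed as *ade6-M210*, as are *htb1-D67N* and *htb1-E112K*. *tps1* was higher in *htb1-E75Q* by 1.52 ± 0.33 on the log2 scale (edgeR, adjusted p = 0.0266) and *ntp1* by 1.94 ± 0.42 (adjusted p = 0.0270), 2 of the 5 genes where 3.64% of all genes were called higher. *gpd1* differed by 1.85 ± 0.50 but had an adjusted p of 0.0601. All 3 were higher in every *htb1-E75Q* library. Leaving out *htb1-E34K* replicate 2 or 3, or *htb1-E75Q* replicate 1 or 3, took the number called to 0, and leaving out *htb1-E75Q* replicate 2 took it to 1.

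The balance between the steps was read as a ratio of FPKM within each library, which is free of the scaling between libraries and divides by transcript length. It does not remove the change of level with gene length given above, and the ratios were not run with the gene-length correction. In WT, *gpd1* averaged 1074 ± 54.5 FPKM (SD, n = 3), *gpd2* 60.3 ± 8.43, *tps1* 42.1 ± 4.11, *tpp1* 37.1 ± 5.95 and *ntp1* 5.09 ± 0.86 FPKM. The *tps1* and *tpp1* transcripts were thus near parity in WT, with ratios of 0.980 to 1.30, whereas *gpd1* exceeded *gpd2* by 16.4 to 19.8 times. The other predicted synthase genes given below are not part of this ratio. One of them, *SPACUNK4.16c*, had a mean of 150 CPM in WT, against 123 for *tps1*.

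The *tps1* to *tpp1* ratio was 2.37 to 3.40 for *htb1-G52D*, 2.82 to 3.35 for *htb1-P102L*, 2.57 to 3.89 for *htb1-E75Q*, 2.79 to 2.87 for *htb1-D67N* and 2.67 to 3.08 for *htb1-E112K*. All 15 libraries of these mutants were above all 3 of WT, and the mean log2 ratio was higher by 1.28, 1.42, 1.39, 1.31 and 1.30 in that order. The ratio was 1.06 to 2.03 in *htb1-E34K*, overlapping WT, and 0.751 to 0.896 in the libraries labelled *set1*Δ, below WT.

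The *gpd1* to *gpd2* ratio was 27.7 to 34.2 for *htb1-G52D*, 41.0 to 61.0 for *htb1-P102L* and 35.1 to 48.6 for *htb1-E75Q*, all above WT, with mean log2 differences of 0.74, 1.40 and 1.22. It was 7.01 to 13.3 in *htb1-E34K* and 5.47 to 5.65 in the libraries labelled *set1*Δ, all below WT, with mean log2 differences of -0.78 and -1.68. *htb1-D67N* and *htb1-E112K* overlapped WT. *htb1-E34K*, for which no single gene of the 5 was called, was therefore outside the WT range for this ratio.

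The *tps1* to *ntp1* ratio moved less. It was 6.17 to 7.0 in *htb1-P102L* and 4.04 to 6.18 in *htb1-E75Q*, against 7.49 to 9.13 in WT, and overlapped WT in the other genotypes. Of the 21 ratio comparisons with WT, 13 reached p = 0.1 in a two-sided exact permutation test, the smallest p that 3 libraries against 3 allow, with a Benjamini-Hochberg adjusted p of 0.162 over the 21.

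**Figure D3:**
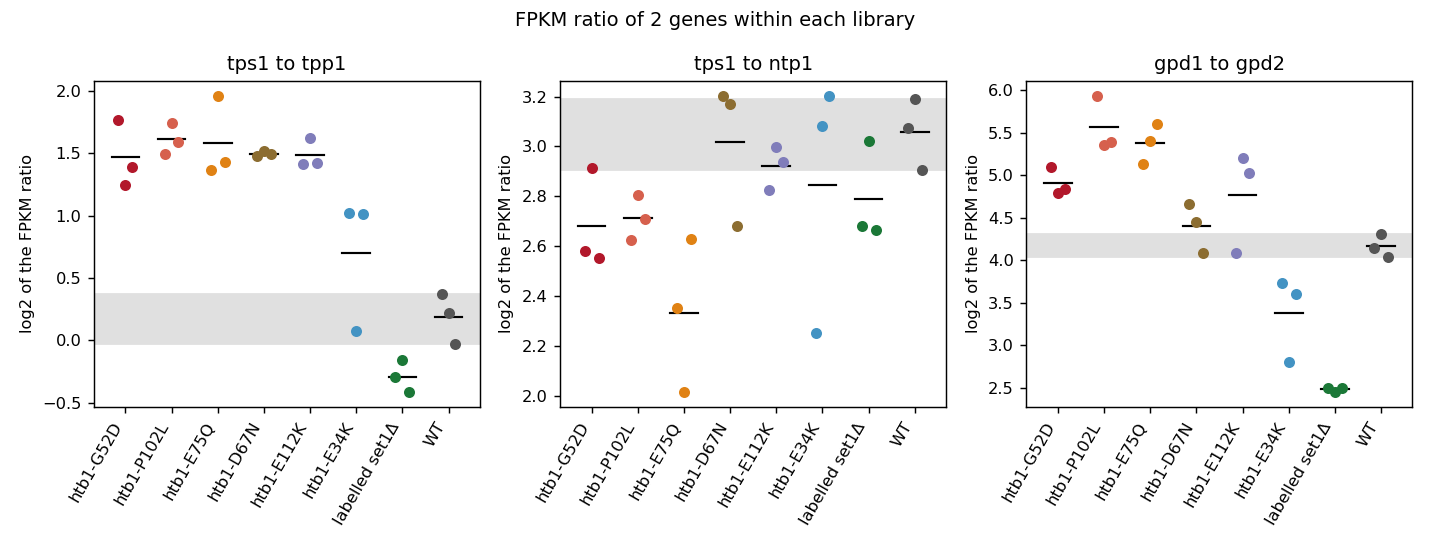
log2 of the FPKM ratio of *tps1* to *tpp1*, *tps1* to *ntp1* and *gpd1* to *gpd2* within each library. Points are libraries, lines are means of 3 and the grey band is the WT range; *tps1* to *tpp1* sits above the band in all libraries of 5 H2B mutants, and *gpd1* to *gpd2* below it in *htb1-E34K* and the libraries labelled *set1*Δ.

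As a description over the 8 genotype means of log2 CPM, with no test, the pattern of *tps1* was most like that of *SPAC513.02* (Pearson r = 0.991), a gene of the phosphoglycerate mutase family, *ntp1* (r = 0.978) and *SPCC1393.12* (r = 0.978), which is specific to *Schizosaccharomyces*. *ntp1* was nearest to *SPBC25B2.10* (r = 0.987), of the universal stress protein family, *dli1* (r = 0.986) and *lsd90* (r = 0.985). *gpd1* was nearest to *ctt1* (r = 0.989), the catalase gene, and to *fhn1* (r = 0.988) and *pil1* (r = 0.979), of the eisosomes at the plasma membrane. *tpp1* was nearest to *SPBC16H5.12c* (r = 0.938), *apl2* (r = 0.887) and *rxt2* (r = 0.879), and *gpd2* to *SPAC688.12c* (r = 0.961), *set11* (r = 0.932) and *mrpl7* (r = 0.931). Among the 5 genes, *tps1* and *gpd1* had r = 0.920, whereas the paralogues *gpd1* and *gpd2* had r = 0.136. These points share libraries and scaling, and the genes with the highest r were picked from all genes.

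The other genes of the trehalose pathway were a list of 4. *SPAC22F8.05*, a predicted trehalose-phosphate synthase gene, had 129 ± 39.5 CPM (SD, n = 3) for *htb1-E75Q*, 74.9 ± 12.5 for *htb1-G52D*, 63.8 ± 5.09 for *htb1-P102L* and 40.6 ± 12.2 for *htb1-D67N*, against 11.7 ± 1.53 in WT, and was called higher in all 4 mutants, with a log2 fold change of 3.44 ± 0.25 in *htb1-E75Q* (edgeR, adjusted p = 2.11e-06). *SPACUNK4.16c*, another predicted synthase gene, was called higher in the same 4 mutants, by 1.33 to 1.60 on the log2 scale. The remaining genes, *tps2* and the predicted phosphoglucomutase gene *SPBC32F12.10*, were called in none. Thus 2 of the 4 genes were called in each of these mutants, where 13%, 13.4%, 9.93% and 10.8% of all genes were called higher, in the order above. None of the 4 was called in *htb1-E112K*, in *htb1-E34K* or among the *set1*Δ-labelled libraries. The shares of all genes called higher there were 7.96%, 0.103% and 5.16%, with 1.3% lower in the last, so 0 of 4 is near them. In the libraries labelled *set1*Δ both synthase genes were lower by less than 2-fold. The log2 fold change was -0.85 ± 0.15 for *SPAC22F8.05* (edgeR, adjusted p = 0.00237) and -0.67 ± 0.12 for *SPACUNK4.16c* (adjusted p = 0.00222).

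Of 8 other genes with a glycerol annotation, 4 were called higher for *htb1-D67N* (10.8% of all genes), 3 for *htb1-P102L* (9.93% of all), 3 for *htb1-E112K* (7.96% of all), 2 for *htb1-E75Q* (13% of all), 1 for *htb1-G52D* (13.4% of all, so near that share) and 0 for *htb1-E34K* (0.103% of all) or *set1*Δ by label (5.16% of all). These 8 were taken by annotation terms and include the thioredoxin genes *trx1* and *trx2*, *dga1* and *tpi1*, which were called in no mutant. All genes called are known for the use of glycerol rather than its synthesis. Since the list left out *gpd1* and *gpd2* from the start, it does not compare use with synthesis. *gld1*, encoding the glycerol dehydrogenase, had 603 ± 88.9 CPM in *htb1-E75Q*, 347 ± 24.5 in *htb1-P102L* and 261 ± 213 in *htb1-G52D*, against 43.2 ± 25.9 in WT, and was called in 5 H2B mutants. *gut2*, for a predicted mitochondrial glycerol 3-phosphate dehydrogenase, was called in *htb1-P102L*, *htb1-E75Q*, *htb1-D67N* and *htb1-E112K*, by 1.17, 2.86, 1.97 and 1.32 on the log2 scale. The dihydroxyacetone kinase gene *dak2* was called in *htb1-P102L* (1.04), *htb1-D67N* (2.38) and *htb1-E112K* (2.20) and *dak1* in *htb1-D67N* (1.40). In *htb1-D67N*, then, *gld1*, *dak1*, *dak2* and *gut2* were called where *gpd1* and *gpd2* were not. Of 7 genes that supply the sugar phosphates, such as *hxk1*, *hxk2*, *pgi1* and *fba1*, 0 were called in any of the 7 mutants, where 0.103% to 13.4% of all genes were called higher, so that for so few genes 0 is near the share of all genes.

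Of 17 genes of the Sty1 pathway, 5 were called higher for *htb1-E75Q* (13% of all genes), 4 for *htb1-G52D* (13.4% of all), 4 for *htb1-D67N* (10.8% of all), 3 for *htb1-P102L* (9.93% of all), 1 for *htb1-E112K* (7.96% of all) and 0 for *htb1-E34K* (0.103% of all). In the libraries labelled *set1*Δ 1, *pyp2*, was called lower (1.3% of all). *atf1* had 156 ± 23.5 CPM for *htb1-E75Q*, 132 ± 28.4 for *htb1-G52D* and 152 ± 15.8 for *htb1-P102L*, against 54.4 ± 10.1 in WT. It was called in these 3 mutants, in each of which *gpd1* was also called. *srk1*, a kinase gene downstream of Sty1, was called in those 3 too, whereas *sty1* itself and *wis1*, which encodes its activating kinase, were called in none. *ntp1*, whose window also holds an Atf1-Pcr1 core, and *tps1* were called in *htb1-D67N* and *htb1-E112K* as well. There *atf1* was not called, at log2 fold changes of 0.68 and 0.09. In the libraries labelled *set1*Δ *atf1* was at -0.99 ± 0.14 (edgeR, adjusted p = 0.00073), just under 2-fold. A part of Atf1 in these changes was not tested. *mak1*, a histidine kinase gene, was called in 4 H2B mutants at low levels of 3.05 to 5.97 CPM, against 1.47 in WT.

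The 7 stress targets *ctt1*, *hsp9*, *hsp16*, *hsp104*, *gpx1*, *zym1* and *pyp2* were all called higher in *htb1-E75Q*, *htb1-G52D* and *htb1-P102L*, with 5 of 7 for *htb1-D67N*, 4 for *htb1-E112K* and 0 for *htb1-E34K*. The shares of all genes called higher were 13%, 13.4%, 9.93%, 10.8%, 7.96% and 0.103% in that order, and the last is too low for 0 of 7 to say anything of these targets. Among the *set1*Δ-labelled libraries, 2 were called lower (1.3% of all genes). These were *ctt1* with a log2 fold change of -2.0 ± 0.19 (edgeR, adjusted p = 6.83e-05) and *pyp2* with -1.29 ± 0.15 (adjusted p = 0.000194). The other targets went in both directions there without a call, at -0.97 for *hsp9*, -0.71 for *hsp104*, 0.03 for *hsp16*, 0.47 for *gpx1* and 0.66 for *zym1*. *zym1*, a metallothionein gene, reached a log2 fold change of 3.82 in *htb1-E112K* and the small heat shock gene *hsp16* reached 3.36 there, a mutant in which *gpd1* was not called. *hsp9* rose most in *htb1-P102L*, at 2.60, and *pyp2*, encoding a phosphatase of Sty1, most in *htb1-E75Q*, at 2.50. *pyp2* is counted in both lists. The list of targets was chosen with the stress genes of these data already known and is not independent of them.

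**Figure D4:**
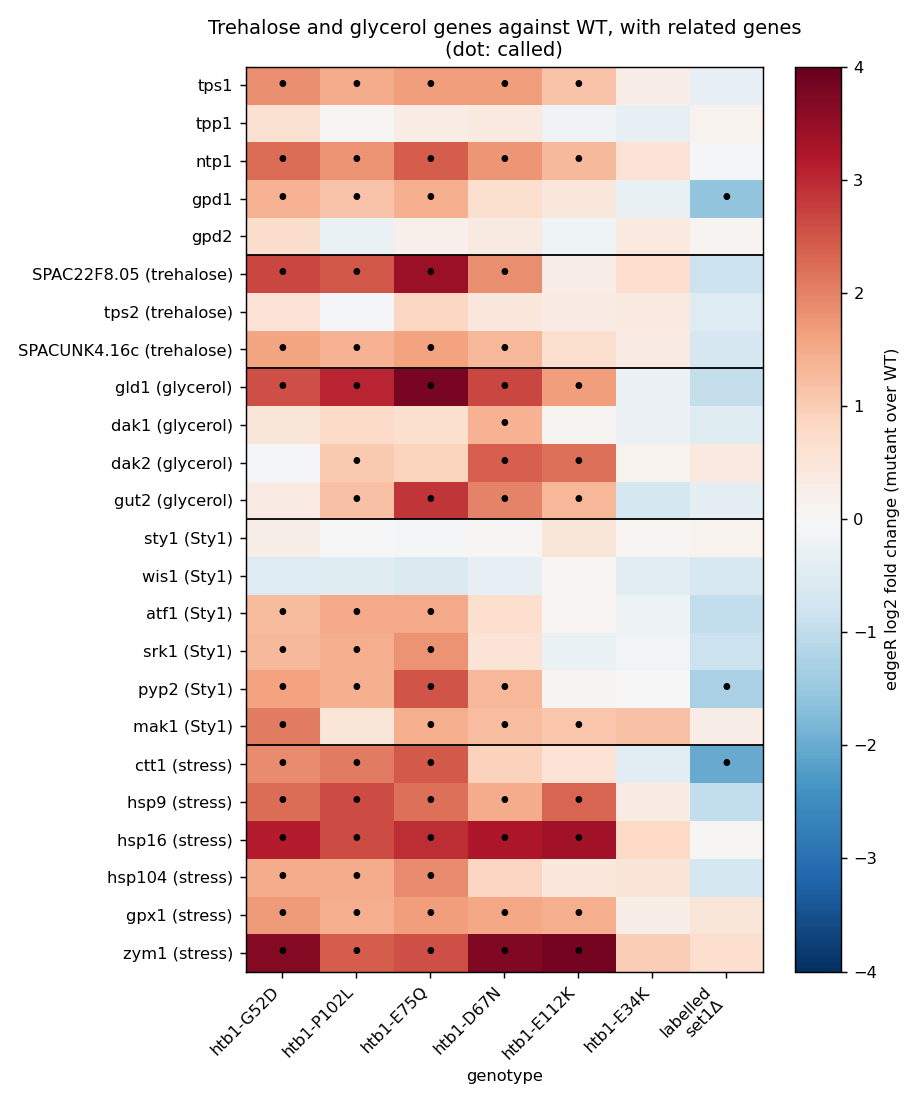
edgeR log2 fold change (colour, mutant over WT) of the 5 genes and of genes from the trehalose, glycerol, Sty1 pathway and stress target lists (rows) in each mutant (columns). A dot marks a gene that passed an adjusted p of 0.05 and 2-fold; *htb1-E34K* has no dot, and *gpd1*, *ctt1* and *pyp2* are the dots in the libraries labelled *set1*Δ.

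Reads of these genes may include those of overlapping transcripts, since the use of strand in counting is not given in the sources used here. In the RefSeq annotation an antisense non-coding RNA covers 74.6% of *gpd1*, shorter antisense RNAs lie within the other 4 genes, *tpp1* shares 39 bases with *its3* and *tps1* shares 12 bases with *dbl4*, which averaged 164 counts in *htb1-G52D* and 43.3 in WT. The counts of *tps1*, *tpp1*, *ntp1*, *gpd1* and *gpd2* cannot be told apart from antisense transcription for that reason.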

How the data were processed

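Polyadenylated RNA of 24 *S. pombe* cultures was sequenced by Illumina. Reads were filtered by the authors with fastp, cleared of rRNA with Bowtie2 and aligned with HISAT2 to Ensembl release 45. The authors deposited raw read counts per gene, and FPKM from StringTie; RSEM and DESeq2 are named without a role in the submitters' processing notes, and the counting program is not given in the sources used here. The authors' fold changes and p-values, and the 7 tables of called genes, were not used. Groups came from the sample labels.

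Counts of 3 libraries a genotype were tested pairwise with edgeR 4.0.16 under R 4.3.3, by TMM after filterByExpr and by glmQLFit and glmQLFTest, with a Benjamini-Hochberg adjusted p under 0.05 over all genes tested and at least 2-fold change. SEs are from the fit; CPM and the F test use 1 fit of all 24 libraries. FPKM ratios were compared by exact permutation tests. Counting error is small at this depth, so 3 libraries a group limit the precision; that repeats are independent is from the methods. Alternatives were DESeq2 1.42.0, limma 3.58.1 on log2(FPKM + 1) for genes with a mean FPKM of at least 1, a replicate block, library totals, a minimum of 10 counts per library or no filter, 1 fit for all libraries, leaving out each library or those with over 100 *ura4* counts, and, added after seeing the data, a gene-length correction (loess, span 0.5, RefSeq length for 98.3% of genes). The genes, the lists and the pairs of mutants compared directly were chosen with earlier results of these data known. Named were the 5 genes, the 3 genes most like each, and of each list up to 4 called genes with the largest change; *ctt1*, *dak1* and others were added to complete a group. Sequences are from RefSeq, build ASM294v3; no coordinates are given because the authors' build may differ. Ratios, sequences and figures used SciPy 1.17.1, pandas 2.3.3, matplotlib 3.10.9 and NumPy 2.4.6 under Python 3.11.15.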

Additional observations from a re-analysis of the deposited data

Results flagged for a closer look

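*tps1* and *gpd1* were singled out because in CPM all libraries labelled *set1*Δ lay below WT while all libraries of several H2B mutants lay above it (in FPKM *tps1* of the libraries labelled *set1*Δ overlapped WT), and the difference itself was tested as a direct contrast in the 24-library edgeR fit, chosen after seeing the data. For *tps1*, the log2 difference of the libraries labelled *set1*Δ was -2.25 ± 0.21 (SE) against *htb1-G52D* (adjusted p = 5.58e-08), -1.84 against *htb1-P102L* (adjusted p = 1.16e-06), -2.09 against *htb1-E75Q* (adjusted p = 1.39e-07), -2.01 against *htb1-D67N* (adjusted p = 2.86e-07) and -1.51 against *htb1-E112K* (adjusted p = 1.87e-05). For *gpd1* it was -3.04 ± 0.35 against *htb1-G52D* (adjusted p = 9.35e-07), -2.74 against *htb1-P102L* (adjusted p = 4.55e-06) and -3.10 against *htb1-E75Q* (adjusted p = 6.82e-07). *ntp1* also differed from these mutants, by -2.58 to -1.39 over the 5, without lying wholly below WT. The *tps1* and *gpd1* contrasts were kept only where all libraries of both groups lay on opposite sides of WT. A difference was thus fixed by that choice, and these p-values are no independent support for it. Against WT itself, *tps1* was not called in the libraries labelled *set1*Δ (-0.33 ± 0.13, edgeR, adjusted p = 0.0865). The *set1* counts in these libraries go against their label, as given above.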

How the results depend on the processing

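No value of the 5 genes changed direction with a call under any alternative. Over the 5 genes and 10 comparisons, leaving out 1 library kept 289 of 300 calls or absences of a call, with 10 lost and 1 gained. In *htb1-G52D* the number of genes called was 5 with library totals and with limma on log2(FPKM + 1), in place of 3, *tpp1* and *gpd2* being added. Between *htb1-G52D* and *htb1-P102L* it became 1 with library totals, with limma and without the libraries with *ura4* counts, and lay between 0 and 1 when 1 library was left out, the gene being *gpd2*. Between *htb1-E75Q* and *htb1-E34K* it lay between 0 and 2 when 1 library was left out and was 3, in place of 2, with library totals, limma, 1 fit of all libraries, a replicate block and DESeq2, *gpd1* being added (1.80 with DESeq2, adjusted p = 0.00134). With a pseudocount, log2(FPKM + 1), the log2 ratio of *tps1* to *ntp1* relative to WT was -0.17 in *htb1-P102L*, in place of -0.34. In *htb1-E112K* it was 0.013, in place of -0.14. Repeats with the same number did not deviate together throughout (correlations of -0.36 to 0.53, never all above 0.1 in a comparison). Some did in part: the correlations were 0.11, 0.08 and 0.24 for *htb1-D67N* against WT. Replicate 3 of *htb1-E75Q* and *htb1-E34K* had 0.53. A replicate block left the number of genes called at 3 in *htb1-G52D*, *htb1-P102L* and *htb1-E75Q*, and raised it to 3, in place of 2, in *htb1-E75Q* against *htb1-E34K*, where *gpd1* was called at 1.89 (adjusted p = 0.0215); it changed no other call of the 5 genes. With library totals, 96.8% of all calls in *htb1-G52D* were higher, against 62.5% with TMM; *gpd1* then stood at 0.99 in *htb1-D67N* and 0.79 in *htb1-E112K*. The cause of these changes was not tested.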
